A study of Mus musculus with 14 samples.

Results

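Amino acid uptake and one-carbon metabolism were followed through 10 genes in bulk RNA-seq of group 2 innate lymphoid cells (ILC2s) sorted from mouse lung. The genes were chosen by symbol, for their place in the pathway and with earlier results of these data known. All 10 were found among the 53278 genes of the count and TPM tables. They encode the amino acid transporters Slc7a5, Slc3a2 and Slc1a5, the serine synthesis enzymes Phgdh, Psat1 and Psph, the folate enzymes Shmt1, Shmt2 and Mthfd2, and asparagine synthetase, Asns. All 10 passed the filter on low counts in both comparisons. The lowest count of any of them was 143 after IL-33 and 56 in the Blimp-1 experiment, both for Psph.

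A lymphocyte that leaves rest must bring in or make more amino acids before it can grow and divide. SLC7A5 carries large neutral amino acids such as leucine across the plasma membrane and reaches the membrane only when bound to SLC3A2, the CD98 heavy chain, while SLC1A5 carries glutamine and other small neutral amino acids. Serine is built from a glycolytic intermediate by PHGDH, PSAT1 and PSPH in turn, and the SHMT enzymes and MTHFD2 move its side-chain carbon onto folate for purine and thymidylate synthesis. ATF4, a transcription factor that is translated when amino acids run short, is known to drive many of these genes.

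The stimulation experiment held 4 Unstimulated and 4 IL-33 stimulated libraries. The series' design text gives 8 female B6 mice, sorted one by one and divided between the groups, while some captions of the study speak of sorted samples from pooled animals, so that the number of mice behind a library is not certain. IL-33 stimulated ILC2s were cultured for 24 hours in complete RPMI with IL-33, an alarmin released by damaged epithelium, at 20 ng/mL, and Unstimulated ILC2s were cultured without it, by the design text for the same time, although that text also calls them ex vivo. The Blimp-1 experiment held 3 Control (ControlIL7RaCre) and 3 Blimp-1-deficient (Blimp-1IL7RaCre) libraries from age-matched female mice, all cultured for 72 hours with IL-33 and IL-25 at 20 ng/mL each (the study's methods also name IL-2). Blimp-1 is a transcriptional repressor encoded by Prdm1, and because the IL7Ra promoter that drives the Cre is active across lymphocytes, T, B and NK cells and the other ILCs of these mice lack it too. For age the study's methods give only a lower bound shared by all of its animals. In bulk RNA fewer cells of a type and less RNA per cell cannot be told apart.

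The upstream sequences of the genes whose levels are described most closely are shown to let the reader see what lies beside their start sites. RefSeq promoters of GRCm38.p6 were matched by symbol for 8 of the 10 genes, the others being Slc7a5 and Slc1a5. The 250 bases before the start site were searched on both strands for 2 motifs, the core of the C/EBP-ATF element, TGATGNAA, to which ATF4 is known to bind, and the E-box CACGTG, to which Myc is known to bind. TGATGNAA was present in 3.45% and CACGTG in 6.02% of all 32851 promoters of that length. Among the 8 genes TGATGNAA was found only in Asns, as TGATGAAA on the strand of the gene, 23 to 16 bases before the start site and overlapping no other motif searched, and CACGTG was found in none. These letters are those of the nutrient-sensing element long described in the Asns promoter. A match is a description of the letters and not of a bound site. The sequence of Asns is given in full (chr6:7693210-7693459, minus strand, with the motif in capitals), and the last 100 bases before the start site are given for Phgdh (chr3:98339970-98340069), Shmt2 (chr10:127522445-127522544), Mthfd2 (chr6:83317605-83317704) and Slc3a2 (chr19:8713898-8713997), all on the minus strand and without a match. The RefSeq start sites of Asns, Phgdh, Mthfd2 and Slc3a2 lie inside the GENCODE gene bounds given with the values.
Asns: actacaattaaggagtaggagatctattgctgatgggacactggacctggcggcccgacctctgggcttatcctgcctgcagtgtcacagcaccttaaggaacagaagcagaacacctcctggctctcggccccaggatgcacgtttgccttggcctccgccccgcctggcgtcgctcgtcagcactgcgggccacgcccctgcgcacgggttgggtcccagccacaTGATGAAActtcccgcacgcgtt
Phgdh: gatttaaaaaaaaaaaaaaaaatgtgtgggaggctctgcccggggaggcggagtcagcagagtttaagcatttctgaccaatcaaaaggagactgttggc
Shmt2: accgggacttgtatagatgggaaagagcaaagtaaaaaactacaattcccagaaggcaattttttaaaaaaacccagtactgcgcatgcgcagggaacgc
Mthfd2: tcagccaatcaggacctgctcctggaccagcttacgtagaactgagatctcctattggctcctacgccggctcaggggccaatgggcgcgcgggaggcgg
Slc3a2: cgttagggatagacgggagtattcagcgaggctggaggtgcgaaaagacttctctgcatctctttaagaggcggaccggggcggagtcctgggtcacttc
The 250 bases also differed in base composition. G and C made up 61.6% of them in Asns, 44.0% in Phgdh, 40.8% in Shmt2, 52.4% in Mthfd2 and 53.6% in Slc3a2, beside a median of 52.4% over all promoters.

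The stimulation libraries held 10470125 to 32849428 counts each and the Blimp-1 libraries 13570188 to 76448945, and a library stood apart in each experiment. IL-33 stimulated replicate 3 had the fewest counts of its experiment and held the lowest level of its group for all 10 genes, against 55.4% of the 15466 genes tested. In Control replicate 2, 76.8% of the counts lay on 7 loci (Lars2 and mt-Rnr2 among them), which left 3150795 counts elsewhere. That library held the lowest level of its group for 7 of the 10 genes and the highest for Asns and Slc7a5, against 50.2% and 41.5% of the 17335 genes tested there. Results are therefore given with and without these libraries. Prdm1, the targeted gene, was at 75.2, 92.8 and 74.0 CPM in Control replicates 1 to 3 and at 14.6, 11.5 and 11.4 CPM in Blimp-1-deficient replicates 1 to 3, where CPM are counts scaled by TMM to a common library size of 1000000. The 10 ILC2 markers, Gata3 and Il1rl1 among them, summed to 5057 CPM or more in every library.

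After IL-33 7 of the 10 genes were higher and none was lower. Asns rose 4.47-fold, and Slc7a5, Shmt1, Shmt2 and Mthfd2 rose between 2.05-fold and 2.27-fold. Phgdh and Psat1 rose 1.58-fold and 1.54-fold, while Psph, Slc3a2 and Slc1a5 did not pass the test. Over all genes tested by edgeR's quasi-likelihood test, 16.2% were higher and 16.1% were lower at an adjusted p below 0.05 (Benjamini-Hochberg, two-sided, n = 4 per group). No gene of the 10 was lower at an unadjusted p below 0.05 or by DESeq2, which called 7 higher, and 3295 of 28268 genes higher in all. The median log2 fold change of the 10 genes was 0.85, beside 0.06 over all genes.

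**Figure D1:**
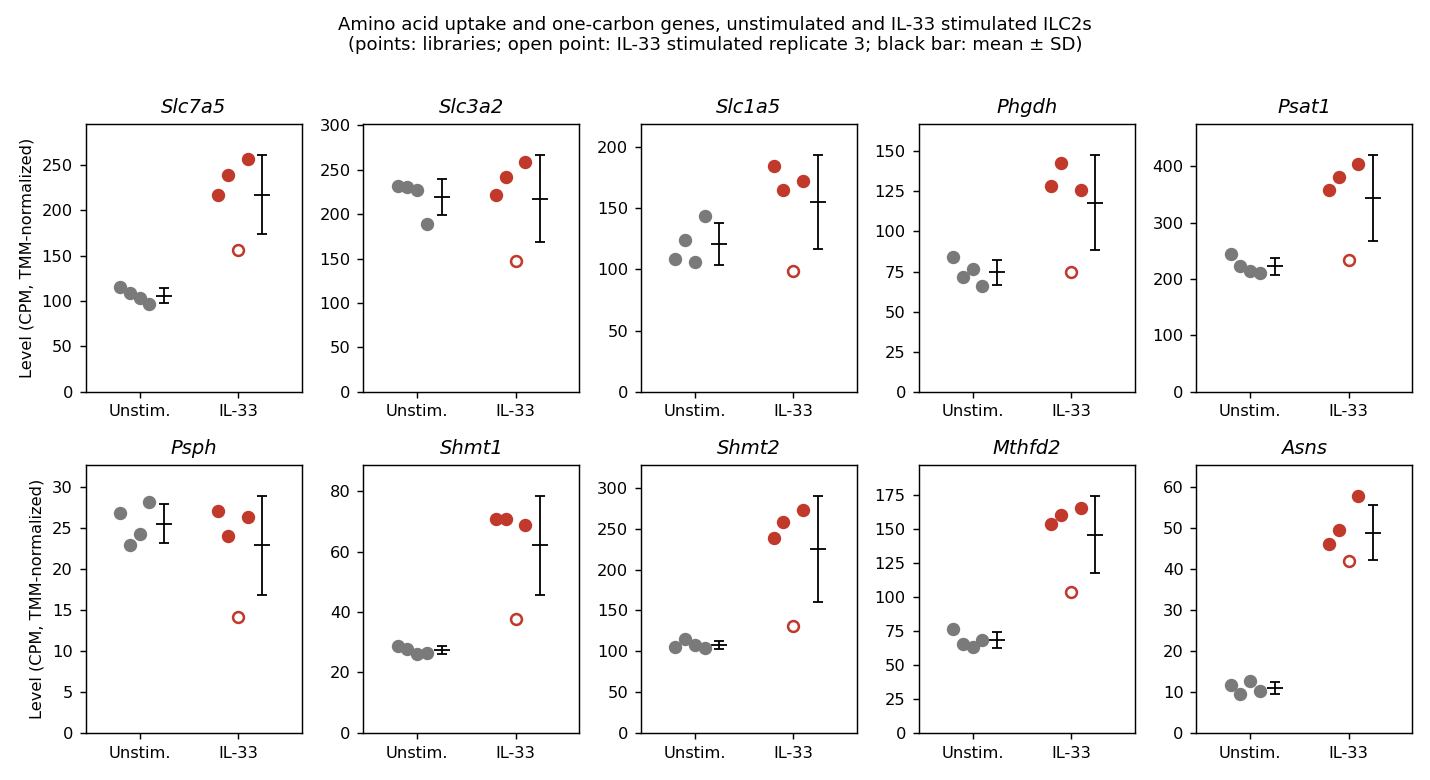
Levels of the 10 genes in TMM-normalized CPM (linear axis from 0) in 4 Unstimulated and 4 IL-33 stimulated libraries, with points for libraries in order of replicate number and a black bar for the mean ± SD. IL-33 stimulated replicate 3, drawn open, is the lowest of its group for every gene. The stimulated libraries are all above the unstimulated ones for Slc7a5, Shmt1, Shmt2, Mthfd2 and Asns, as they were for 17.0% of all genes.

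Of the transporters only Slc7a5 passed the test. Slc7a5 (chr8:121881150-121907694, minus strand of GRCm38) was at 116, 109, 103 and 96.9 CPM in Unstimulated replicates 1 to 4 and at 217, 239, 156 and 256 CPM in IL-33 stimulated replicates 1 to 4. Every stimulated library was above every unstimulated one. The log2 fold change was 1.04 (standard error 0.15, adjusted p = 0.00129). Its partner Slc3a2 (chr19:8706882-8723369, minus strand) stood at 232, 230.5, 227 and 189 CPM before and at 222, 242, 147 and 259 CPM after IL-33. The groups overlapped throughout, with unstimulated replicate 4 and stimulated replicate 3 low in their groups, and the log2 fold change was -0.01 (95% interval -0.40 to 0.38, adjusted p = 0.957). Slc1a5 (chr7:16781340-16798274, plus strand) was at 108, 124, 106 and 144 CPM in unstimulated libraries, and at 184, 165, 98.7 and 172 CPM in stimulated ones. Stimulated replicates 1, 2 and 4 lay above all unstimulated libraries, but replicate 3 lay below them all, and the log2 fold change of 0.36 did not pass the test (95% interval -0.09 to 0.82, adjusted p = 0.183).

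Since the SLC7A5 and SLC3A2 proteins work as a pair, the ratio of their transcripts was also taken within each library, where it does not depend on how libraries are scaled. Slc7a5 had 0.474, 0.448, 0.433 and 0.488 of the TPM of Slc3a2 in Unstimulated replicates 1 to 4, and 0.931, 0.942, 1.01 and 0.943 of it after IL-33. The ratio was thus near equality in all 4 stimulated libraries, including replicate 3, and below 0.5 in all 4 unstimulated ones. On the log2 scale the mean moved from -1.12 ± 0.08 to -0.06 ± 0.05 (SD, n = 4 each), a difference of 1.06 or 2.08-fold. The exact two-sided permutation test gave p = 0.0286, the smallest that 4 against 4 libraries allow, and 0.114 after adjustment over the 4 ratio tests made.

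In serine synthesis the first 2 enzymes rose and the last did not pass the test. Phgdh (chr3:98313170-98339990, minus strand), the dehydrogenase that commits phosphoglycerate to serine, was at 84.1, 71.3, 76.7 and 66.1 CPM in Unstimulated replicates 1 to 4. After IL-33 it was at 128, 143, 74.9 and 126 CPM, so that replicates 1, 2 and 4 lay above all unstimulated libraries and replicate 3 lay among them. Its log2 fold change was 0.66 (standard error 0.19, adjusted p = 0.0291). The aminotransferase Psat1 (chr19:15904678-15947337, minus strand) was at 244, 222, 215 and 210.1 CPM, and at 358, 382, 234 and 403 CPM after IL-33, with replicate 3 again inside the unstimulated range. The log2 fold change of Psat1 was 0.63 (standard error 0.16, adjusted p = 0.0194). Both calls were lost when any one of IL-33 stimulated replicates 1, 2 and 4 or Unstimulated replicate 3 was left out, with adjusted p between 0.054 and 0.082. With the replicate number as a block Phgdh also lost its call (adjusted p = 0.0656). Both genes also lost their calls with no filter on low counts and with limma on log2 TPM, and Phgdh with library size alone. In all, Phgdh lost its call under 9 and Psat1 under 7 of 18 alternatives. Psph (chr5:129765558-129787449, minus strand), the phosphatase that releases serine, showed 26.9, 22.9, 24.2 and 28.1 CPM before and 27.1, 24.1, 14.1 and 26.3 CPM after IL-33. Apart from the low replicate 3 the values lay in the same range, and the log2 fold change was -0.15 (95% interval -0.62 to 0.32, adjusted p = 0.581). Of the distinct stretches of 75 bases in Phgdh transcripts, 35.8% occur in 13 other genes, and the 10 of these in the tables held 4.43 to 9.58% as many counts as Phgdh, so its level is uncertain by reads that may be shared. Psph shares 10.4% of its exon bases with Cct6a on the opposite strand, and whether counting used the strand is not given in the sources used here.

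The 3 folate enzymes rose between 2.09-fold and 2.27-fold. Cytosolic Shmt1 (chr11:60788104-60811718, minus strand) was at 28.9, 27.9, 26.3 and 26.5 CPM in Unstimulated replicates 1 to 4 and at 70.9, 70.9, 37.6 and 68.7 CPM after IL-33. The mitochondrial form Shmt2 (chr10:127517123-127522444, minus strand) was at 105, 115, 108 and 104 CPM, and at 239, 259, 131 and 273 CPM after IL-33. Mthfd2 (chr6:83305691-83325908, minus strand), the mitochondrial dehydrogenase and cyclohydrolase that acts next, was at 76.0, 65.4, 62.8 and 68.3 CPM, and at 153, 159.8, 104 and 166 CPM after IL-33. For all 3 every stimulated library was above every unstimulated one, replicate 3 by the narrowest margin. Shmt1 rose 2.27-fold (standard error 0.20 on the log2 scale, adjusted p = 0.00255). The log2 fold changes were 1.06 for Shmt2 (0.21, 0.00577) and 1.10 for Mthfd2 (0.15, 0.000974). Within libraries Shmt2 had 4.56, 5.14, 5.14 and 4.89 times the TPM of Shmt1 in Unstimulated replicates 1 to 4 and 4.21, 4.56, 4.35 and 4.96 times after IL-33. These ranges overlapped, and the mean log2 ratio differed by -0.13 (exact two-sided permutation p = 0.114, adjusted p = 0.229 over the 4 ratio tests). Shmt1 and Shmt2 share 4.74% and 1.03% of their exon bases with genes on the opposite strand.

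Asns, which makes asparagine from aspartate and glutamine and whose upstream sequence held the TGATGAAA match, had the largest change of the 10. Asns (chr6:7675169-7693254, minus strand) was at 11.6, 9.39, 12.6 and 10.1 CPM in Unstimulated replicates 1 to 4 and at 46.1, 49.5, 42.1 and 57.8 CPM in IL-33 stimulated replicates 1 to 4. The groups were far apart, and replicate 3 stood close to the other stimulated libraries. Its log2 fold change was 2.16 (standard error 0.14, adjusted p = 3.37e-05).

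Without IL-33 stimulated replicate 3, 8 of the 10 genes were higher, none was lower, and for 8 genes every stimulated library was above every unstimulated one, against 28.6% of all genes. Over all genes 27.5% were then higher and 29.7% lower. Slc1a5 was the gene added, 0.53 higher on the log2 scale with a standard error of 0.10 (adjusted p = 0.00130). The other 7 moved little, from 0.77 for Psat1 to 2.23 for Asns, and their standard errors narrowed, for Shmt2 from 0.21 to 0.06. Slc3a2 and Psph, at 0.13 (95% interval -0.05 to 0.32) and 0.02 (-0.18 to 0.21), did not pass the test with either set of libraries. The median of the 10 genes was 1.00, beside -0.05 over all genes.

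**Figure D2:**
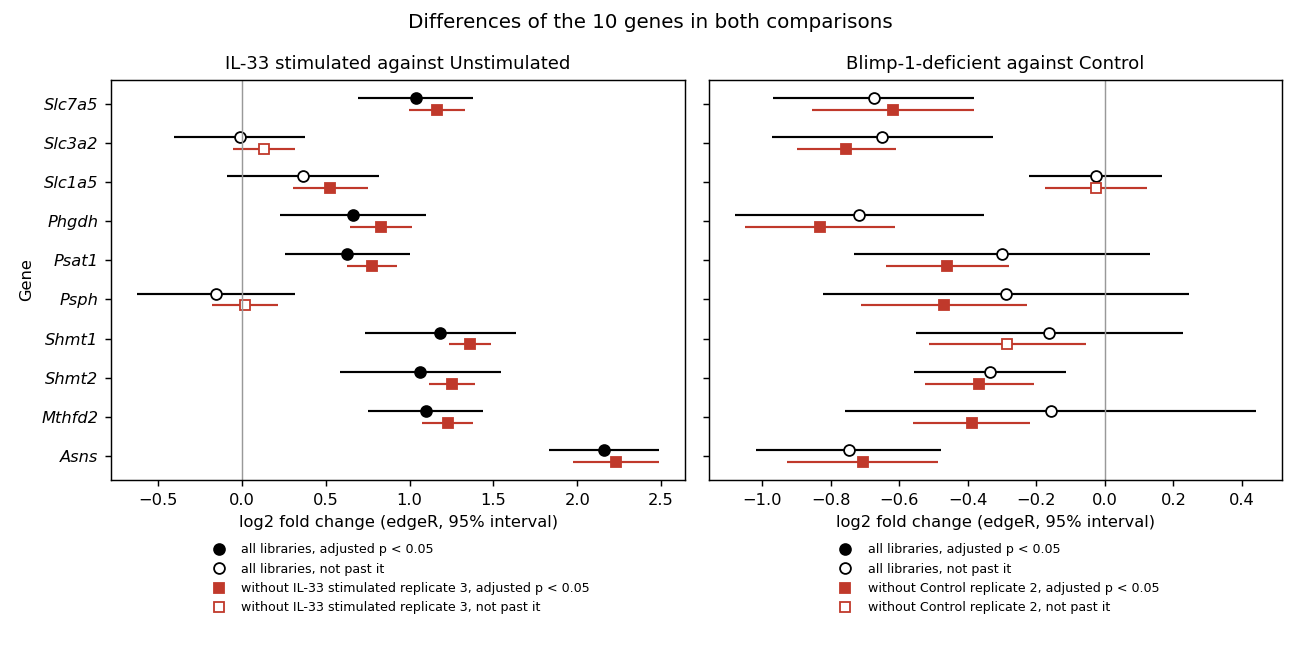
Log2 fold changes of the 10 genes with 95% intervals from edgeR's quasi-likelihood fit, for IL-33 stimulated against Unstimulated (left) and Blimp-1-deficient against Control (right), over all libraries (circles) and without the library that stood apart (squares), with filled symbols for an adjusted p below 0.05. On the left Asns lies farthest from 0, at 2.16, and on the right Slc1a5 stays at -0.03 with either set of libraries.

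Markers of other cells moved with the stimulation groups. Of the 10 ILC2 markers 2 were higher and 7 lower after IL-33, where 16.2% and 16.1% of all genes were. Their summed level ran from 7991 to 8682 CPM before and from 5630 to 7784 CPM after IL-33. The 7 T cell markers, 3 of them lower and none higher, summed to between 51.1 and 64.9 CPM before and between 14.5 and 27.8 CPM after IL-33. Of the 5 markers of mast cells and basophils only 2 had counts enough to be tested, and 1 was lower. The 5 summed to between 8.41 and 18.4 CPM before and between 1.12 and 1.58 CPM after, with Ms4a2 at 0 throughout. Of the 8 epithelial and stromal markers 5 were tested, 2 of them lower and 1 higher. The 8 summed to between 323 and 503 CPM before and between 209 and 381 CPM after IL-33. Epcam was at 52.4 to 69.5 CPM before and 2.27 to 3.55 CPM after it. The epithelial markers Sftpc and Krt8 were at no more than 1.66 CPM in any stimulation library. Scgb1a1 was at 18.7 CPM in Unstimulated replicate 2 and at most 0.0694 CPM elsewhere in the experiment. The endothelial marker Pecam1 went up, from 48.3 to 80.9 CPM before to 109 to 140 CPM after. Cdh5, also endothelial, was at 23.4 to 42.9 CPM before and 12.9 to 24.6 CPM after. Of the ILC3 markers 3 were tested, 1 of them higher and 1 lower (12.4 to 22.0 CPM summed before, 4.53 to 19.1 CPM after). Of the B cell markers 2 were tested and 1 was higher (11.02 to 13.9 CPM before, 16.3 to 20.3 CPM after). None passed among the 5 myeloid and the 3 NK cell and ILC1 markers that were tested. IL-33 stimulated replicate 3, the lowest of its group for all 10 genes, held Csf1r, a macrophage receptor, at 27.2 CPM and Col1a1, a fibroblast collagen, at 237 CPM, against at most 2.17 and 67.7 CPM in the other stimulated libraries. The other myeloid markers went both ways in replicate 3. Adgre1 and S100a8 were the highest of the group, at 3.35 and 0.788 CPM, and Cd68 and Itgax the lowest, at 7.58 and 7.09 CPM. C1qa was at 0 there. Lyz2, at 72.7 CPM, and the fibroblast marker Pdgfra, at 13.7 CPM, lay within the range of the other stimulated libraries. The part of these shifts in the differences of the 10 genes was not tested.

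Ordered by CPM per kilobase of exon, a level that can be compared between genes, Slc3a2 led in Unstimulated ILC2s at 62.2 ± 5.78 and Asns was last at 4.00 ± 0.53 (SD, n = 4). Psat1 followed Slc3a2 at 52.4 ± 3.55, and Shmt2, Phgdh, Slc1a5 and Slc7a5 lay between 34.7 and 28.6 with neighbours whose libraries overlapped. Mthfd2 at 19.5, Shmt1 at 7.05, Psph at 5.90 and Asns were each below the gene before them in all 4 libraries, without overlap. After IL-33 Psat1 led at 80.9 ± 17.8, followed by Shmt2 at 72.5 ± 20.8, Slc3a2 at 61.6 ± 13.9 and Slc7a5 at 58.6 ± 11.8, all overlapping with their neighbours. Asns had moved to place 8 at 17.9 ± 2.45, next to Shmt1 at 16.0 ± 4.20 and above Psph, now last at 5.29 ± 1.39. This scale is set separately in each experiment, so that levels were compared within an experiment only.

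The rest of the pathway was examined in 8 lists of other genes. Between them 155 genes were tested, of which 62 were higher and 18 lower after IL-33, where 16.2% and 16.1% of all genes were. Of 25 other serine, glycine and folate enzymes and carriers 11 were higher and 3 lower, and of 13 purine synthesis genes, which use the carbon carried on folate, 6 were higher and 2 lower. The reduced folate carrier Slc19a1 rose from 17.3 ± 1.47 to 48.8 ± 15.5 CPM (SD, n = 4 each, adjusted p = 0.00241) and the proton-coupled folate transporter Slc46a1 rose from 0.643 ± 0.192 to 1.55 ± 0.408 CPM (adjusted p = 0.0240). Gldc, which cleaves glycine in mitochondria, fell from 7.66 ± 0.521 to 2.47 ± 1.16 CPM (adjusted p = 0.00626), and Sfxn3, a relative of the mitochondrial serine carrier, fell from 49.8 ± 2.73 to 25.2 ± 0.831 CPM (adjusted p = 6.02e-05). In purine synthesis the ribose phosphate synthetase Prps1 rose by a log2 fold change of 1.09, Gmps and Impdh2 of the guanine branch rose by log2 fold changes of 0.58 and 0.57, and Adssl1, a muscle form of adenylosuccinate synthase, fell from 10.8 ± 2.08 to 1.72 ± 0.429 CPM.

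Among 25 other amino acid transporters 6 were higher and 3 lower, a balance that did not hold under other settings, with 7 and 7 without IL-33 stimulated replicate 3, 2 and 7 with library size alone and 4 and 7 without the 7 loci. Library size alone lowered the median of all genes from 0.06 to -0.10, and the transporters' median stood 0.12 above it, as against 0.13 with TMM. Slc16a10, which carries aromatic amino acids, fell from 34.0 ± 4.50 to 11.8 ± 3.64 CPM (adjusted p = 0.00219). The 3 with the largest rises were at low levels. The cationic transporter Slc7a3 rose from 0.0749 ± 0.0661 to 0.810 ± 0.303 CPM, Slc43a1, which carries branched-chain amino acids, rose from 0.407 ± 0.112 to 0.824 ± 0.0549 CPM, and Slc1a4, which carries serine and alanine, rose from 1.90 ± 0.147 to 4.57 ± 2.73 CPM. Of 22 enzymes of glutamine, aspartate, proline and branched-chain amino acids 9 were higher and 3 lower. These counts were 14 and 5 without IL-33 stimulated replicate 3, and 6 and 2 without Unstimulated replicate 3. With library size alone they were 8 and 5, and with limma on log2(TPM + 1) 5 and 6. The aminotransferases of branched-chain amino acids and aspartate, Bcat1 and Got1, rose from 3.16 ± 0.591 to 39.2 ± 10.6 CPM (adjusted p = 3.77e-05) and from 35.5 ± 3.31 to 107 ± 5.97 CPM (adjusted p = 1.36e-05). The glutaminase Gls2 rose from 0.839 ± 0.0931 to 4.33 ± 1.31 CPM and the alanine aminotransferase Gpt2 from 2.77 ± 0.707 to 10.1 ± 8.56 CPM.

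Of 10 genes of the methionine cycle, transsulfuration and glutathione 4 were higher and 3 lower, a balance that turned under other settings. It was 2 and 4 with library size alone, and 2 and 3 with the replicate block or without Unstimulated replicate 3. With limma on log2(TPM + 1) it was 1 and 4 of 9. Mtap, which salvages methionine, rose from 82.9 ± 6.23 to 166 ± 18.7 CPM, and Cbs, the first enzyme of transsulfuration, rose from 0.0862 ± 0.0581 to 1.81 ± 2.54 CPM. Ahcyl2, a relative of the enzyme that clears S-adenosylhomocysteine, fell from 1232 ± 35.7 to 161 ± 15.8 CPM, and Gclm of glutathione synthesis fell from 59.2 ± 3.87 to 29.6 ± 3.68 CPM. Cbs, Gpt2 and Slc1a4 were highest in IL-33 stimulated replicate 3, at 5.61, 23.0 and 8.67 CPM, and at no more than 0.624, 6.51 and 3.29 CPM in the other stimulated libraries. Without that replicate their log2 fold changes were 2.51, 1.08 and 0.75, in place of 4.20, 1.86 and 1.26, and each remained past the threshold.

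Among the 8 lists the share of higher genes was largest for the 20 cytosolic aminoacyl-tRNA synthetases, the enzymes that load amino acids onto tRNA, of which 15 were higher and none lower (none also at an unadjusted p below 0.05 or by DESeq2). With library size alone or without the 7 loci 14 were higher and 1 lower, and without IL-33 stimulated replicate 3 19 and 1. Iars, for isoleucine, rose from 119.7 ± 0.602 to 252 ± 49.4 CPM, and Cars, Nars and Hars rose by log2 fold changes of 0.91, 0.88 and 0.88. Of 20 genes of ATF4 and the amino acid response 6 were higher and 1 lower, a balance that varied with the settings. It was 10 and 3 without IL-33 stimulated replicate 3, and 3 and 1 without stimulated replicate 1, 2 or 4. With library size alone it was 4 and 4, without the 7 loci 5 and 4, and with limma on log2(TPM + 1) 3 and 5. Atf3 and Nupr1, transcriptional regulators of the stress response, rose from 2.25 ± 0.522 to 38.0 ± 13.6 CPM and from 2.19 ± 0.621 to 12.4 ± 4.29 CPM, and Ddit4, an inhibitor of mTORC1, rose from 89.4 ± 9.45 to 166 ± 52.9 CPM. Stc2, a secreted glycoprotein, fell from 102 ± 3.14 to 33.3 ± 6.83 CPM. Of 20 genes of mTORC1 and Myc 5 were higher and 3 lower, but 6 and 7 without IL-33 stimulated replicate 3, 4 and 6 with library size alone and 5 and 5 with DESeq2. Among them Myc rose from 76.8 ± 2.49 to 240.4 ± 42.2 CPM (adjusted p = 7.46e-05) and Rraga rose by 0.65 on the log2 scale, while Lamtor4 and Mlst8 fell by 0.76 and 0.66. When limma was applied to log2(TPM + 1), which put the median of all genes at -0.25 and called 1032 of 15171 genes higher and 4655 lower, the 8 lists together held 21 higher and 41 lower genes, and the tRNA synthetases 5 and 1.

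**Figure D3:**
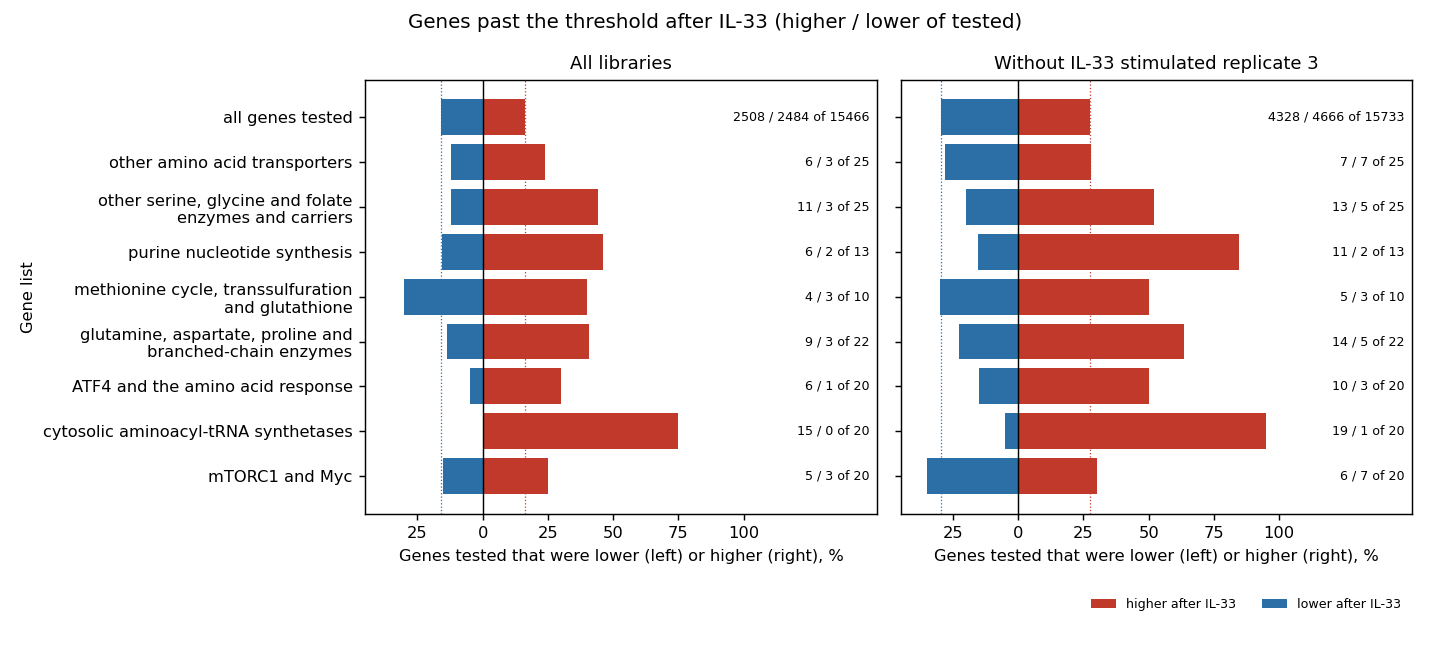
Share of the genes tested that were higher (right) or lower (left) after IL-33 in each of 8 lists, in percent, over all libraries (one panel) and without IL-33 stimulated replicate 3 (the other), with the counts of higher and lower genes beside the bars and dotted lines at the shares over all genes. Of the 20 tRNA synthetases 15 are higher over all libraries and 19 without replicate 3.

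The genes whose levels followed the mean of the 10 most closely over the 8 stimulation libraries were Uqcrq, Imp4, Uggt1, Npm3 and Adsl, ranked among 10800 genes by Pearson's r of log2 CPM, which ran from 0.997 down to 0.996. Uqcrq is a subunit of respiratory complex III, Imp4 and Npm3 serve ribosome assembly and chromatin, Uggt1 checks glycoprotein folding and Adsl is a purine enzyme. All 5 passed the test after IL-33, with log2 fold changes from 0.38 for Uggt1 to 0.89 for Npm3. Of 18 alternatives, the call was lost under 10 for Uggt1, 9 each for Uqcrq and Adsl, 8 for Imp4 and 6 for Npm3. The libraries share the stimulation contrast and the low replicate 3, so the likeness is a description and carries no test.

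In Blimp-1-deficient ILC2s all 10 genes had a log2 fold change below 0 against Control, but over all 6 libraries none passed the test, and 2 other scalings moved all genes together. With library size alone, which put the median of all genes at 0.45, 6 of the 10 were above 0, and with limma on log2(TPM + 1), which put it at 1.28, all 10 were above 0. Against these medians 9 of the 10 were lower with library size alone and 6 with limma. No gene of the 10 was called by edgeR's quasi-likelihood test, in which 0.306% of the 17335 genes tested were lower and 0.450% higher (Benjamini-Hochberg adjusted p below 0.05, n = 3 per group). By unadjusted p below 0.05, which 2071 of all genes met in either direction, 5 were lower (Asns, Phgdh, Slc7a5, Slc3a2 and Shmt2), and these were also the 5 genes whose groups did not overlap, against 10.8% of all genes with every Blimp-1-deficient library below every Control. DESeq2 called the same 5 genes lower, where 2.90% of the genes it tested were lower. Their adjusted p in edgeR were 0.0515 for Asns, 0.0747 for Slc7a5, 0.107 for Slc3a2, 0.114 for Phgdh and 0.212 for Shmt2. The median log2 fold change of the 10 genes was -0.32, beside -0.02 over all genes.

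Without Control replicate 2, 8 of the 10 genes were lower and none higher, where 5.72% of all genes were lower and 8.25% higher. The 8 were Asns, Phgdh, Psat1, Psph, Shmt2, Mthfd2, Slc7a5 and Slc3a2, and 9 genes had groups that did not overlap, against 26.1% of all genes. The median of the 10 genes was -0.46, beside 0.01. The count in edgeR's test therefore turned on Control replicate 2, and the reason was not tested. It also depended on the tool, filter and scaling. Over all 6 libraries 5 genes were lower by DESeq2, 3 at a mean count of at least 50 and 1 with RLE size factors.

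**Figure D4:**
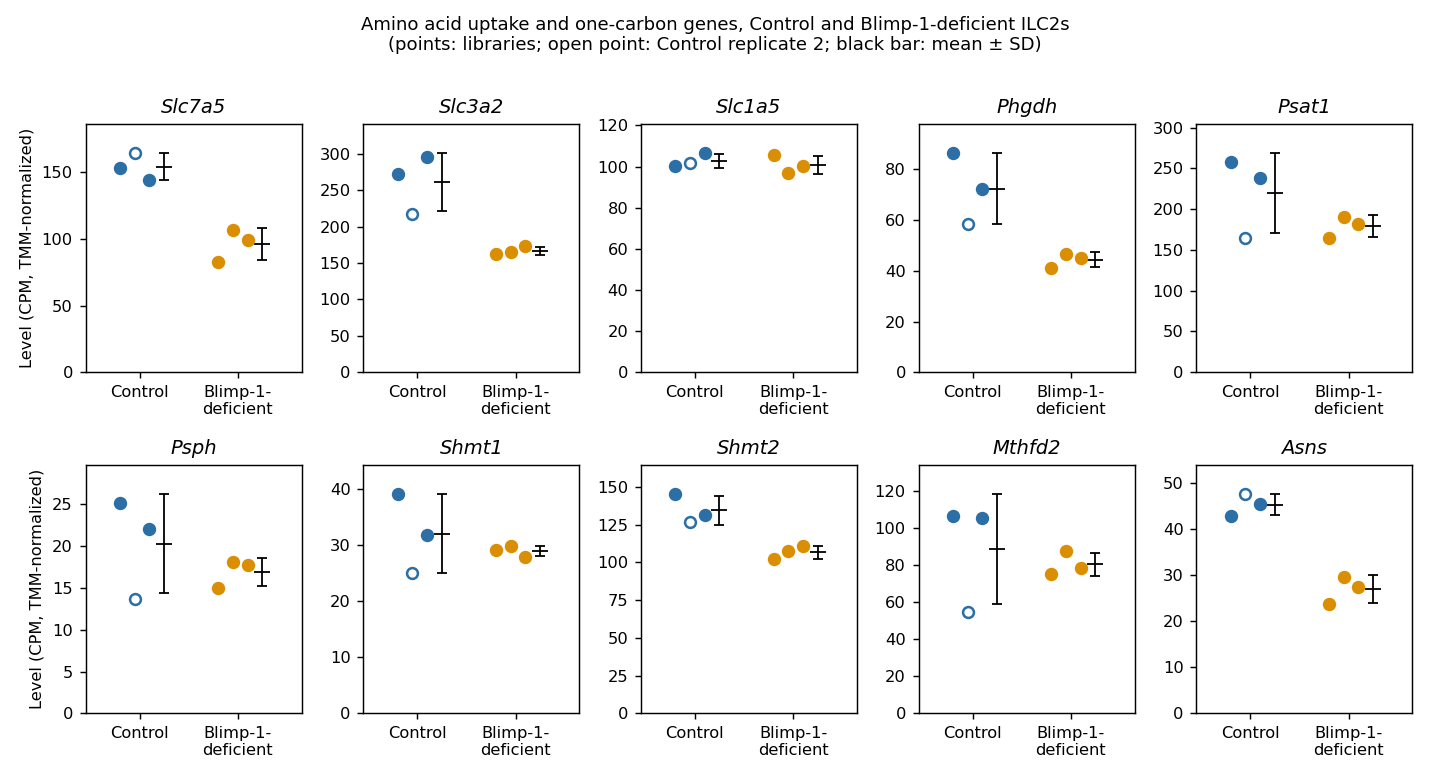
Levels of the 10 genes in TMM-normalized CPM (linear axis from 0) in 3 Control and 3 Blimp-1-deficient libraries, with points for libraries and a black bar for the mean ± SD. Control replicate 2, drawn open, is the lowest Control for 7 genes, while the Blimp-1-deficient libraries lie below all Controls for Asns, Phgdh, Shmt2, Slc7a5 and Slc3a2.

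Both chains of the leucine transporter passed the test once Control replicate 2 was left out, and the glutamine carrier did not with either set of libraries. Slc7a5 was at 153, 165 and 144 CPM in Control replicates 1 to 3 and at 83.1, 107 and 99.3 CPM in Blimp-1-deficient replicates 1 to 3. Slc3a2 was at 272, 218 and 295 CPM in Control and at 163, 165 and 173 CPM in Blimp-1-deficient ILC2s. For both genes all deficient libraries were below all Controls. The log2 fold changes were -0.67 for Slc7a5 (standard error 0.12) and -0.65 for Slc3a2 (0.13) over all libraries, and -0.62 (adjusted p = 0.0101) and -0.75 (adjusted p = 0.00125) without Control replicate 2. Slc1a5 was at 100.1, 102 and 107 CPM in Control and at 106, 96.9 and 100.3 CPM in Blimp-1-deficient ILC2s, where the groups overlapped. Its log2 fold change of -0.03 had a 95% interval of -0.22 to 0.17, and -0.17 to 0.12 without Control replicate 2.

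The ratio of Slc7a5 to Slc3a2 did not separate these groups. It was 0.536, 0.720 and 0.465 in Control and 0.486, 0.615 and 0.546 in Blimp-1-deficient libraries, with the highest value in Control replicate 2. The mean log2 ratio was -0.83 ± 0.32 and -0.87 ± 0.17 (SD, n = 3 each), a difference of -0.05 (exact two-sided permutation p = 1.0, where 3 against 3 libraries cannot go below 0.1). Without Control replicate 2 the difference was 0.13 (exact permutation p = 0.4). Shmt2 had 4.64, 6.31 and 5.17 times the TPM of Shmt1 in Control and 4.40, 4.51 and 4.95 times in Blimp-1-deficient libraries, again overlapping, with a difference of -0.21 on the log2 scale (exact permutation p = 0.2).

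**Figure D5:**
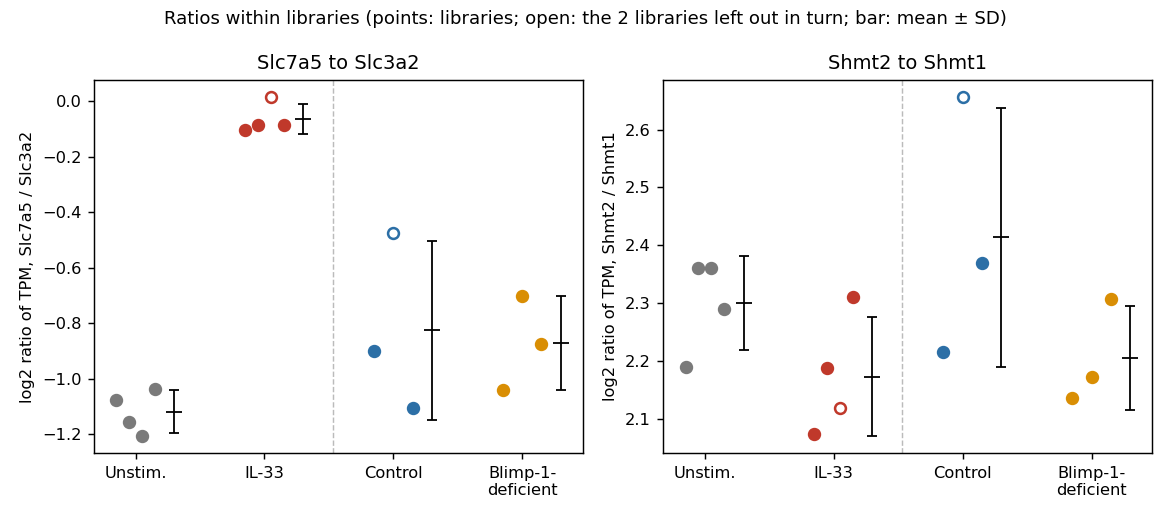
Log2 ratio of the TPM of Slc7a5 to Slc3a2 (left) and of Shmt2 to Shmt1 (right) within each library of the 4 groups, with points for libraries, open points for IL-33 stimulated replicate 3 and Control replicate 2, black bars for the mean ± SD and a dashed line between the experiments. Only the Slc7a5 to Slc3a2 ratio after IL-33 is apart from its comparison group, with a mean of -0.06 against -1.12.

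In serine synthesis Phgdh was at 86.6, 58.5 and 72.1 CPM in Control and at 41.1, 46.8 and 45.1 CPM in Blimp-1-deficient replicates 1 to 3, below every Control. Its log2 fold change was -0.72 (standard error 0.15), and -0.83 without Control replicate 2 (standard error 0.09, adjusted p = 0.00291). Psat1 was at 257, 165 and 239 CPM in Control and at 165, 191 and 182 CPM without Blimp-1. Psph was at 25.1, 13.6 and 22.0 CPM in Control and at 15.0, 18.1 and 17.7 CPM without Blimp-1. For both genes Control replicates 1 and 3 were above all deficient libraries and replicate 2 was below them. Over all libraries Psat1 had a log2 fold change of -0.30 (95% interval -0.73 to 0.13, adjusted p = 0.600) and Psph of -0.29 (-0.82 to 0.25, 0.691). Without that replicate they were -0.46 (adjusted p = 0.0108) and -0.47 (0.0272).

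Among the folate enzymes Shmt2 was at 145, 127 and 131 CPM in Control and at 102, 107 and 111 CPM in Blimp-1-deficient libraries, with no overlap. Mthfd2 was at 106, 54.6 and 106 CPM in Control and at 75.1, 87.6 and 78.8 CPM in deficient libraries. Shmt1 was at 39.1, 25.1 and 31.8 CPM in Control and at 29.1, 29.8 and 27.9 CPM in deficient libraries. As for Psat1, Control replicate 2 was below the deficient libraries for Mthfd2 and Shmt1, and the other Controls were above them. The log2 fold changes over all libraries were -0.33 for Shmt2 (standard error 0.09), -0.16 for Mthfd2 (0.25) and -0.16 for Shmt1 (0.16). Without Control replicate 2 they were -0.37 (adjusted p = 0.0151), -0.39 (0.0157) and -0.28 (0.0970), so that Shmt1 alone of these 3 did not pass.

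Asns, the gene that rose most after IL-33, was at 42.9, 47.5 and 45.5 CPM in Control and at 23.6, 29.6 and 27.5 CPM in Blimp-1-deficient libraries. All deficient libraries were below all Controls, and Control replicate 2 did not stand apart for this gene. The log2 fold change was -0.75 (standard error 0.11, adjusted p = 0.0515), and -0.71 without Control replicate 2 (standard error 0.09, adjusted p = 0.00489). Per kilobase Asns was at place 8 of the 10 in both groups, at 16.6 ± 0.846 in Control and 9.84 ± 1.11 in Blimp-1-deficient ILC2s (SD, n = 3 each). Slc3a2, Psat1 and Shmt2 led in that order in both groups, and Psph was last.

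Of the 155 other genes tested in the 8 lists only 1 was lower and 1 higher in Blimp-1-deficient ILC2s over all libraries, with 20 lower and 12 higher at an unadjusted p below 0.05 and 10 and 5 by DESeq2. Slc7a8, another light chain that pairs with SLC3A2 and carries neutral amino acids, fell from 619 ± 27.5 to 307 ± 15.1 CPM (SD, n = 3 each, adjusted p = 0.0239), and Sesn3, a sestrin that restrains mTORC1, rose from 265 ± 27.5 to 792 ± 8.48 CPM (adjusted p = 0.0116). Without Control replicate 2 the log2 fold changes were -0.998 (adjusted p = 0.000861) for Slc7a8 and 1.51 (0.000134) for Sesn3, while with limma on log2(TPM + 1) that of Slc7a8 was 0.74 and with the replicate number as a block neither gene passed. Without Control replicate 2, 5.72% of all genes were lower and 8.25% higher. The tRNA synthetases were then 9 lower and none higher of 20, though over all libraries none passed even at an unadjusted p below 0.05. The serine, glycine and folate list was 5 lower and 1 higher of 26, and the other transporters 4 lower and 3 higher of 25. The glutamine and aspartate list was 5 lower and none higher of 22. Purine synthesis was 1 lower and 1 higher of 13, and the methionine list 2 and 2 of 11. The ATF4 list and the mTORC1 and Myc list are given over all libraries only. At an unadjusted p below 0.05 in edgeR's test the ATF4 list was 1 lower and 4 higher of 20. The mTORC1 and Myc list was 3 lower and 3 higher of 20. By DESeq2 these lists were 0 lower and 1 higher, and 2 lower and 1 higher. Some of the 51 marker genes examined did not pass the filter on low counts and were not tested. Of the rest, 1 ILC3 marker was higher and 1 marker of NK cells and ILC1s was lower over all libraries, where 0.450% and 0.306% of all genes were. The ILC3 markers summed to between 1.95 and 5.63 CPM in Control and between 11.2 and 26.5 CPM in Blimp-1-deficient libraries, and Col1a1 was at 2171 CPM in Control replicate 2 and at 48.1 to 268 CPM in the other libraries of the experiment. None of the 10 ILC2 markers passed the test, but their summed level did not overlap between the groups, at 5683 to 6757 CPM in Control and 5057 to 5309 CPM in Blimp-1-deficient libraries. The single markers went both ways, with Il2ra, Il1rl1, Gata3 and Klrg1 below Control in every Blimp-1-deficient library and Icos, Il7r, Rora and Thy1 above it. Il2ra was at 1896 to 2330 CPM in Control and 1253 to 1445 CPM in Blimp-1-deficient libraries, and Icos at 205 to 304 CPM and 508 to 543 CPM. In the epithelial and stromal list the endothelial marker Pecam1 was at 31.7 to 80.8 CPM in Control and 159.96 to 175 CPM in Blimp-1-deficient libraries. Cdh5, also endothelial, overlapped between these groups, at 17.8 to 32.7 CPM and 24.5 to 38.2 CPM. None of the 6 markers of that list that were tested passed. The part of these in the differences of the 10 genes was not tested.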

How the data were processed

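RNA was sequenced from 14 libraries of sorted lung ILC2s. Per the study's methods cutadapt, HISAT2 (GRCm38) and Subread were used by the authors for trimming, alignment and counting, while the submitters' processing notes name Bowtie2, Subread, DESeq2 and mm10. The authors deposited raw counts per gene and, separately, TPM (reads per transcript length, scaled to a common sum) for 53278 genes. All 28 columns of values were matched to a library by name. Accessible chromatin data were not analysed here.

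Counts were filtered with filterByExpr, scaled by TMM and tested with edgeR 4.0.16 (glmQLFit and glmQLFTest, two-sided, Benjamini-Hochberg, threshold 0.05) in R 4.3.3, with each experiment fitted alone. Fold changes are the second group over the first. Ratios of 2 genes came from deposited TPM and were compared by exact permutation in SciPy 1.17.1. CPM per kilobase used the deposited gene length. The alternatives were DESeq2 1.42.0, RLE size factors, library size alone, no filter, a mean count of at least 50, a replicate block, limma 3.58.1 on log2 TPM (pseudocounts of 1 and 0.1, genes with a mean TPM from 1 up), the 7 loci left out, each library left out in turn and, for ratios, counts plus 0.5. The edgeR fit was tried on simulated counts that varied less between libraries than these data do. That trial does not cover the libraries that stood apart. The design text gives each library its own mouse, some captions of the study pooled animals.

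The 10 genes, the 8 gene lists (171 of 173 genes were in the tables) and the 8 marker lists were chosen with earlier results of these data known. Within each list the genes named were up to 4 that passed the test with the largest log2 fold changes in either direction. The gene models of GENCODE vM21 matched 49612 of the 53278 symbols to 1 gene, 47260 of them with the deposited exon length, including all 10 genes. Intervals cover the spread between libraries.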

Additional observations from a re-analysis of the deposited data

Results flagged for a closer look

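In 2 of the 20 sets of 4 values examined (10 genes in the Unstimulated and the IL-33 stimulated group), the gap between an end library and its nearest neighbour, over the range of the group, passed Dixon's limit at 95% for groups of 4. Slc3a2 was at 189 CPM in Unstimulated replicate 4, the lowest of its group, with a gap of 0.886 of the range. Shmt1 was at 37.6 CPM in IL-33 stimulated replicate 3, the lowest of its group, with a gap of 0.934 of the range. Chance passes this limit in about 1 of 20 groups. The groups of 3 in the Blimp-1 experiment were not examined in this way.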

How the results depend on the processing

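After IL-33 Asns, Shmt1, Mthfd2 and Slc7a5 kept their direction and passed the test under all 18 alternatives. Shmt2 lost its call under 2 of the 18, limma at either pseudocount, with an adjusted p of up to 0.0528. The count of higher genes was 7, 6 with library size alone (1805 of all 15466 genes higher), 5 with no filter (1672 of 28268), 4 with limma at either pseudocount (1032 and 1027 of 15171), 8 with DESeq2 and IL-33 stimulated replicate 3 left out (4570 of 27942, an alternative chosen after seeing the data), and 5 to 8 when 1 library was left out. With limma the median of all genes was at -0.25 and -0.29 and the share of higher genes among all those called was 18.1% and 18.4%, against 50.2% in edgeR, 32.8% with library size alone and 36.9% without the 7 loci. Psph had a log2 fold change of 0.017 without IL-33 stimulated replicate 3 and of 0.051 with DESeq2 as well, and Slc3a2 of 0.13 and 0.17 under these and of 0.06 and 0.05 without Unstimulated replicate 1 or 2. With 1 library left out Psph ran from -0.24 to 0.017 and Slc3a2 from -0.11 to 0.13. The Slc7a5 to Slc3a2 difference ran from 1.03 to 1.08 when 1 library was left out, and that of Shmt2 to Shmt1 from -0.17 to -0.09. For Slc7a5 to Slc3a2 the exact permutation p was then 0.0571, the smallest possible with 1 library left out.

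For Blimp-1-deficient ILC2s the count of lower genes was 0, 5 with DESeq2, 1 with RLE size factors (58 of all 17335 genes lower), 3 with a mean count of at least 50 (107 of 13458), 9 with DESeq2 and Control replicate 2 left out (chosen after seeing the data, with 1630 of all 29886 genes lower), and 0 to 8 when 1 library was left out. With limma at pseudocounts of 1 and 0.1 the log2 fold changes were above 0, at 0.84 and 1.01 for Asns, 0.95 and 1.08 for Phgdh, 1.41 and 1.5004 for Psat1, 0.95 and 1.45 for Psph, 1.25 and 1.599 for Shmt1, 1.36 and 1.44 for Shmt2, 1.49 and 1.68 for Mthfd2, 1.02 and 1.09 for Slc7a5, 1.09 and 1.14 for Slc3a2, 1.61 and 1.74 for Slc1a5, and 0.74 and 0.77 for Slc7a8. All genes shifted, to medians of 1.28 and 1.69, and 6 and 9 of the 10 genes were below these. With library size alone Psat1 was at 0.074, Psph at 0.073, Shmt1 at 0.24, Shmt2 at 0.13, Mthfd2 at 0.17 and Slc1a5 at 0.46, beside a median of 0.45, which 9 of the 10 genes were below. Slc1a5 was at 0.013 with no filter. With 1 library left out Slc1a5 ran from -0.051 to 0.0096, above 0 without Control replicate 3 or Blimp-1-deficient replicate 2, Shmt1 from -0.28 to 0.024 and Mthfd2 from -0.39 to 1.6e-05, both highest without Control replicate 1. The Slc7a5 to Slc3a2 difference ran from -0.19 to 0.13, at 0.13 without Control replicate 2 and 0.038 without Blimp-1-deficient replicate 1, and that of Shmt2 to Shmt1 from -0.31 to -0.09. The cause of the differences between libraries left out was not tested.

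Of the list genes named, Slc43a1 lost its call under 11 of 15 alternatives, Slc1a4 under 10 of 18, Slc46a1 under 8 of 17, Gpt2 and Ddit4 under 6 of 18 each, Cbs under 5 of 15, Lamtor4 under 3 of 18, Impdh2 under 2 of 18, Sesn3 under 9 of 16 and Slc7a8 under 8 of 16 beside the 2 in which it was reversed.

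Replicate numbers are shared between groups, but the design text puts different mice in the groups, and same-numbered libraries correlated between -0.145 and 0.282 after IL-33 and between -0.134 and 0.122 in the Blimp-1 experiment. With the replicate block 6 of the 10 genes were higher after IL-33 and none was lower in Blimp-1-deficient ILC2s. The Slc7a5 to Slc3a2 difference after IL-33 was 1.06. An exact permutation of signs within same-numbered pairs gave p = 0.125, the smallest that it can give here. Calls over all genes moved from 2508 and 2484 to 1802 and 1898, and from 78 and 53 to 0 and 0. Psph rested on 56 counts in Control replicate 2.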
